A study of Mus musculus with 4 samples.

Results

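Transcripts of the B-cell antigen receptor and of its immediate signalling proteins were examined in mouse bone marrow-derived macrophages that had received a miR-204-3p mimic (2 libraries) or a negative-control mimic (2 libraries). The 9 genes were Ighm and Ighd (the antigen-binding chain), Cd79a and Cd79b (the signalling chains), and Klhl6, Blnk, Btk, Syk and Plcg2 (proteins that act behind them), taken by symbol from the 54532 rows of the count table. In both groups, bone marrow cells had been grown for 7 days with L929-conditioned medium as the source of M-CSF, and were then transfected for 24 h, so that all 4 libraries share the transfection with a mimic. The labels give no strain, age or number of animals. Nothing in them shows whether replicate libraries go back to different mice or dishes, and each p-value therefore covers the spread of these samples alone, which could be technical. The groups are called mimic and control libraries here. Total counts were 15899235 to 16837826 per library. The macrophage markers Adgre1, Csf1r, Cd68, Itgam, Lyz2, Fcgr1 and Spi1 were detected in all 4 libraries.

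In B cells, the antigen receptor is a membrane immunoglobulin made of heavy and light chains, held together with a CD79A-CD79B heterodimer whose tails carry the tyrosine motifs (ITAMs) that recruit the kinase SYK. SYK phosphorylates the adaptor BLNK, which brings together the kinase BTK and the phospholipase PLCG2, and PLCG2 makes the second messengers that raise calcium and activate protein kinase C. A functional heavy-chain mRNA joins a variable (V), a diversity (D) and a joining (J) segment to a constant region. The heavy-chain locus is also known, in B-cell precursors, to give germline transcripts that carry a constant region and no V segment. Macrophages lack an antigen receptor of this kind, and use SYK, BTK, PLCG2 and BLNK behind Fc receptors and other ITAM-coupled receptors. KLHL6 is a substrate adaptor of a cullin ubiquitin ligase and is known for its part in B-cell receptor signalling and germinal centre formation.

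The transfected microRNA is shown first, because its seed defines the sites sought in the member transcripts. The sequence is the RefSeq mature form on GRCm38.p6, from the 3′ arm of the hairpin, with bases 2 to 8 (the seed) in capitals.
mmu-miR-204-3p (chr19:22750649-22750669, plus strand): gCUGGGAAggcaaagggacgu

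The heavy-chain segments upstream of Ighm that had counts are shown next, because they mark how far the counts reached beyond the constant regions. They are from the GENCODE vM21 transcripts on GRCm38, in the order of transcription. Capitals mark the letters TGGGG, which encode the start of the conserved tryptophan-glycine motif of each J segment. The counted Ighj2 row is 100 bases long and reaches to position 113429567, while the transcript shown has 48 bases.
Ighd4-1 (chr12:113430528-113430538, minus strand): ctaactgggac
Ighj1 (chr12:113429781-113429833, minus strand): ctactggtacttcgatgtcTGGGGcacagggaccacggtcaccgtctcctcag
Ighj2 (chr12:113429468-113429515, minus strand): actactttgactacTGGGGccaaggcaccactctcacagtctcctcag
Ighj3 (chr12:113429085-113429132, minus strand): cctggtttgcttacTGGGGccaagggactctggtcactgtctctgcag
Ighj4 (chr12:113428514-113428567, minus strand): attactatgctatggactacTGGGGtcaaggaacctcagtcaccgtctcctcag

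Both heavy-chain constant region genes fell, and Ighm had the largest fitted fall among the members with counts in every library. Ighm, which encodes the mu constant region of IgM (ENSMUSG00000076617, mm10 chr12:113418558-113422730, minus strand), had 51 and 53 counts in the miR-204-3p mimic libraries, against 3542 and 3096 in the control mimic libraries. The groups were far apart, and the libraries within each group were close to each other. After scaling to CPM (counts per 1e6 counts of the library) by TMM (trimmed mean of M-values), this was an 83.8-fold lower level in the mimic libraries, a log2 fold change of -6.39 ± 0.17 (standard error; edgeR quasi-likelihood test, adjusted p = 7.3e-12), and 0.303% of the 13186 tested genes had a lower log2 fold change. Ighd, which encodes the delta constant region of IgD (chr12:113406604-113416324, minus strand), had 0 counts in both mimic libraries, against 14 and 26 in the control libraries. The level was at least 17.6-fold lower in the mimic libraries, taking 3 counts over the group as the upper limit of a count of 0 (edgeR adjusted p = 1.0e-04). Without control replicate 2, or with a filter of 1 CPM in 2 libraries, Ighd had too few counts to be tested.

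Counts in the control libraries extended upstream of Ighm into the J cluster, and none of them lay in a V segment or a light chain. All 4 J rows had counts in both control libraries and 0 in both mimic libraries. Ighj1 had 42 and 49 counts in the control libraries, Ighj2 17 and 15, Ighj3 13 and 8, and Ighj4 15 and 13. Summed, the J rows held 0 counts in each mimic library, against 87 and 85 in the control libraries, a level at least 75.5-fold lower (with 3 counts taken as the limit of the group). Per 1000 Ighm counts there were 24.6 and 27.5 J counts in the control libraries. At that ratio the 51 and 53 Ighm counts of the mimic libraries would bring few J counts, so that a change in the ratio was not detectable at this depth. Of the J rows, Ighj1, Ighj2 and Ighj4 had enough counts to be tested, through the control libraries alone, and all of them fell (edgeR adjusted p = 3.3e-06, 1.3e-04 and 2.2e-04). Among 20 rows of D segments, only Ighd4-1, which lies 695 bases from the nearest J row and is the closest of them, had counts: 0 in both mimic libraries, against 5 and 1 in the control libraries. The next D row, Ighd3-2, lies 18381 bases from the J cluster and had 0 counts in every library.

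The 185 heavy-chain V rows together had 0 and 1 counts in the mimic libraries and 0 in both control libraries, and the 1 count was on Ighv1-80. The 166 kappa rows had 0 and 1 counts in the mimic libraries, on Igkc, and 0 in both control libraries, and the 12 lambda rows had 0 in all libraries. The 6 rows of switched constant regions (IgG, IgA and IgE) had 0 counts in all libraries as well. A count of 0 allowed up to 3 counts in a library, which is 0.156 and 0.164 CPM in the mimic libraries and 0.208 and 0.213 CPM in the control libraries, for counting error only. Ighm made up 97.1% and 96.5% of all immunoglobulin counts in the control libraries. The counting program was not given in the sources used here, so that its treatment of reads that match several similar V rows, or that span rearranged segments, is unknown, and from which transcript the Ighm reads came was not tested.

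**Figure D1:**
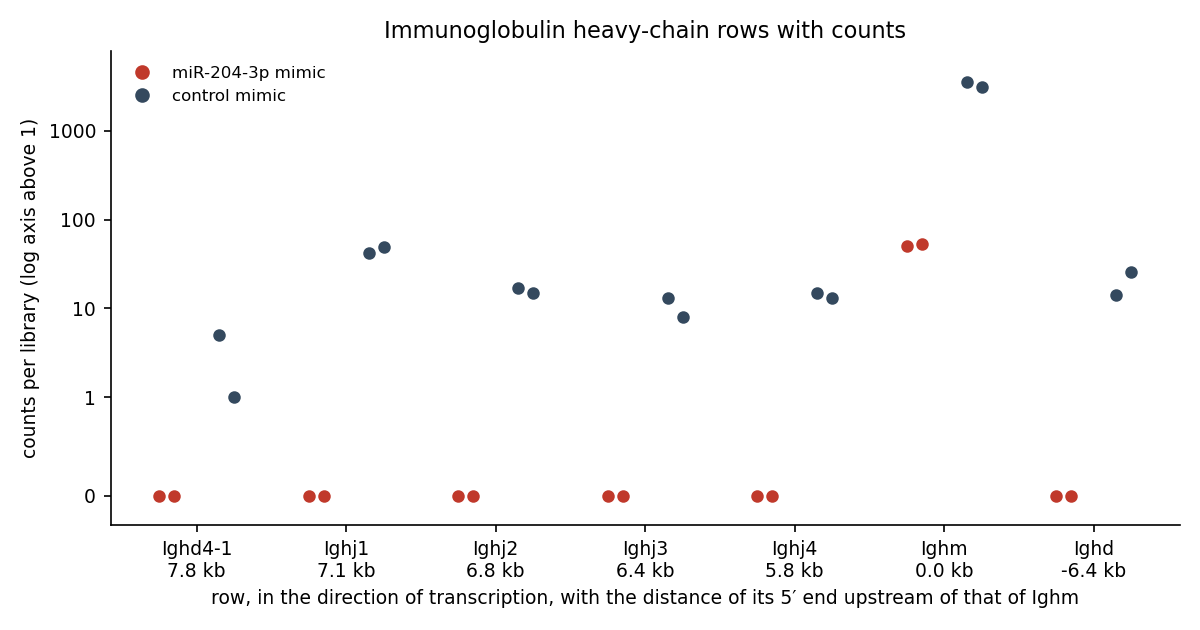
Counts per library (y axis, log scale above 1) of the heavy-chain rows with counts at the J and constant end of the locus, from Ighd4-1 to Ighd in the direction of transcription; each tick gives the distance in kb of the row's 5′ end upstream of that of Ighm. Points are libraries, miR-204-3p mimic left and control mimic right. The mimic libraries have 51 and 53 counts on Ighm and 0 on the other rows shown, while the control libraries have counts on every row shown.

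Cd79a and Cd79b, the signalling chains of the receptor, were expressed at a low level and were lower in the mimic libraries. Cd79b (chr11:106311341-106314762, minus strand) had 2 and 7 counts in the mimic libraries, against 34 and 46 in the control libraries. The mimic libraries differ from each other here, though both lie well below the control libraries. Cd79b fell by 3.51 ± 0.57 on the log2 scale (edgeR adjusted p = 1.0e-04), and leaving out mimic replicate 1 gave -2.86, mimic replicate 2 -4.68. Cd79a (chr7:24897381-24902197, plus strand) had 12 and 8 counts in the mimic libraries, against 26 and 21 in the control libraries. The groups did not overlap, with a log2 fold change of -1.62 ± 0.49 (edgeR adjusted p = 0.010). Where 1 library is left out, its group has 1 library, which is assumed to vary like those of the other group. The call for Cd79a was lost with DESeq2 (adjusted p = 0.058), and on leaving out control replicate 1 (0.076) or mimic replicate 2 (0.11), and 8.31% of its 50-base stretches occur also in transcripts of the gene model Gm32220. Ighd, Cd79a and Cd79b passed the low-count filter through the control libraries, since they exceeded its minimum in 0, 1 and 0 mimic libraries.

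Klhl6 (chr16:19946496-19983037, minus strand) fell 41.4-fold. It had 140 and 137 counts in the mimic libraries, against 4928 and 3801 in the control libraries. The mimic libraries were close to equal, and the lower control library was still far above them. Scaled levels were 7.37 ± 0.135 CPM in the mimic group and 305.6 ± 50.6 CPM in the control group (SD, n = 2 each), and the log2 fold change was -5.37 ± 0.17 (edgeR adjusted p = 2.9e-11). Klhl6 shared no 50-base stretch with a transcript of another gene.

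Transcripts of the cytoplasmic signalling proteins that macrophages also use changed little or not detectably. Plcg2, which encodes the phospholipase, had 139.0 and 140.4 CPM in the mimic libraries and 225.2 and 215.8 CPM in the control libraries. Its groups were tight and separate, and it fell by 0.66 ± 0.12 on the log2 scale (edgeR adjusted p = 3.2e-04), which did not exceed a minimum fold change of 1.5 (adjusted p = 0.24). With library size alone the value of Plcg2 was -0.30 (edgeR adjusted p = 0.042). Syk, which encodes the kinase recruited by ITAMs, had 135.8 and 122.6 CPM in the mimic libraries and 150.9 and 181.2 CPM in the control libraries. The groups did not overlap, but the control libraries were further from each other than the nearest libraries of the groups were, with a log2 fold change of -0.36 ± 0.13 (edgeR adjusted p = 0.029). That call was lost on leaving out control replicate 2 (adjusted p = 0.27) or mimic replicate 2 (0.081), and against a minimum fold change of 1.5 (1.0), and with library size alone the value was 0.0011 (adjusted p = 0.99).

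Blnk and Btk did not pass the test. Blnk, which encodes the adaptor, had 61.1 and 63.7 CPM in the mimic libraries and 68.5 and 73.6 CPM in the control libraries, a log2 fold change of -0.19 ± 0.13 (edgeR adjusted p = 0.22). Btk, which encodes Bruton's tyrosine kinase, had 69.2 and 75.1 CPM in the mimic libraries and 73.4 and 76.5 CPM in the control libraries, and its groups overlapped (log2 fold change -0.05 ± 0.13, edgeR adjusted p = 0.73). Both values depended on the scaling. With library size alone Blnk was at 0.18 (adjusted p = 0.24) and Btk at 0.31, which then passed as higher (adjusted p = 0.042). The pseudogene Gm15154 lies within Btk on the other strand and had 5 and 6 counts in the mimic libraries, against 2 and 0 in the control libraries, so that it could add little to Btk.

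**Figure D2:**
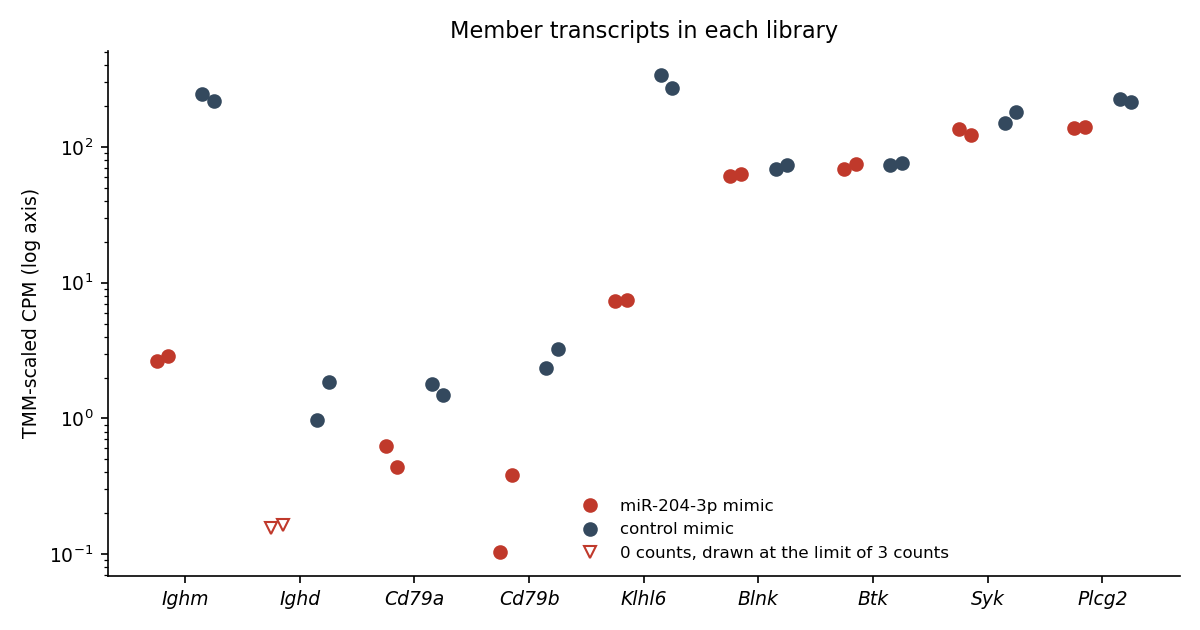
TMM-scaled CPM of the 9 genes in each library (y axis, log scale), with miR-204-3p mimic libraries left and control mimic libraries right of each tick; open triangles mark 0 counts, drawn at the level of 3 counts. Ighm and Klhl6 lie between 2 and 8 CPM in the mimic libraries and above 200 CPM in the control libraries, while the Blnk and Btk points lie close together.

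Of the 9 genes 7 were lower and none was higher at an adjusted p below 0.05, where 60.8% of all 13186 tested genes passed, 29.7% lower and 31.1% higher. By DESeq2 6 of the 9 were lower and none was higher. The median log2 fold change was -1.62 over the 9 genes and 0.04 over all tested genes. It is the value of Cd79a, and stays so with Ighd at its bound. After TMM scaling, the groups did not overlap for 8 of the 9, all lower. With the same scaling 80.7% of all tested genes did not overlap, 38.9% lower and 41.9% higher. Ighm, Ighd, Cd79b and Klhl6 were at least 8-fold lower, where 2.29% of tested genes passed as at least 8-fold lower. Of these 4, Ighd and Cd79b were tested through the control libraries alone, and Cd79b was less than 8-fold lower, at -2.86, without mimic replicate 1. In bulk RNA, fewer cells of a type and less RNA per cell cannot be told apart. When library size alone set the scale, the median of all tested genes was 0.40 in place of 0.04, and 70.9% of the genes that passed were higher, in place of 51.1%. On that scale, the values of Ighm (-6.03), Klhl6 (-5.01), Cd79b (-3.15) and Cd79a (-1.26) were still below 0 and past the threshold. The values of Blnk (0.18), Btk (0.31) and Syk (0.0011) were then above 0. In that fit 6 of the 9 genes passed as lower and 1, Btk, as higher. Overlap of the groups was read after TMM scaling alone.

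**Figure D3:**
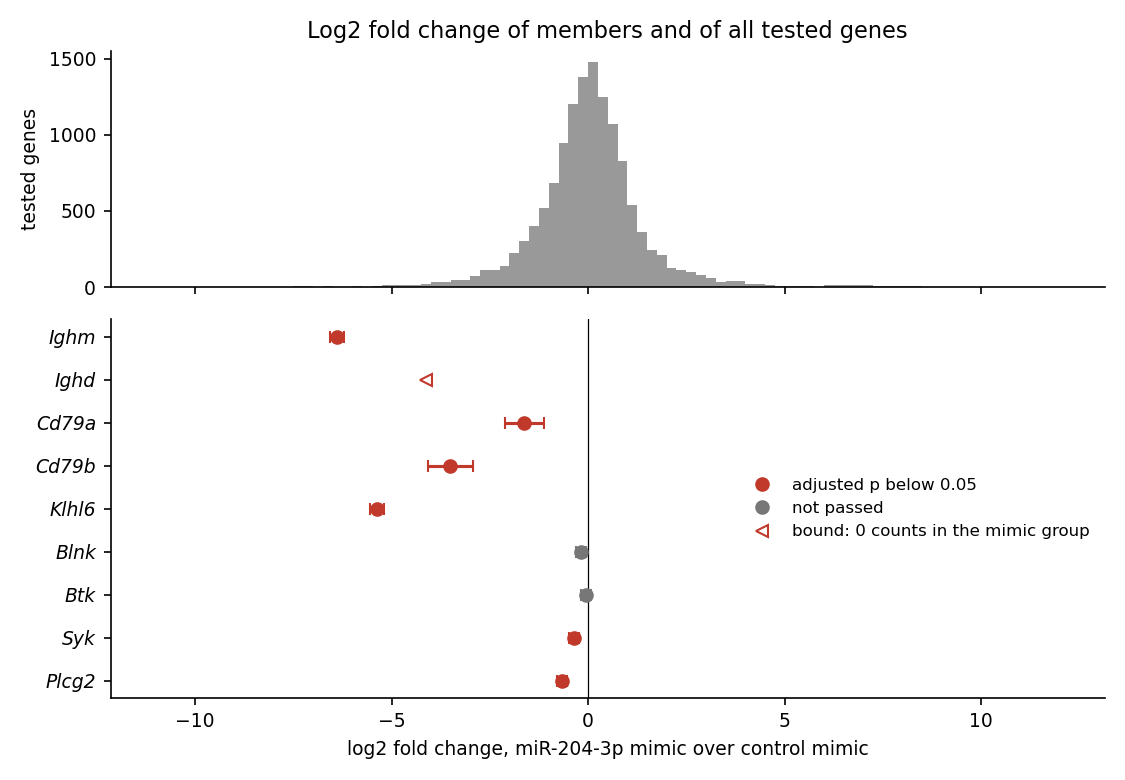
Log2 fold change, miR-204-3p mimic over control mimic (x axis), as a histogram of all tested genes above and for the 9 genes below, with the standard error as bars; the triangle of Ighd is a bound from 0 counts in the mimic group. Ighm and Klhl6 lie in the far lower tail at -6.39 and -5.37, and Btk, Blnk, Syk and Plcg2 lie within the bulk of genes, between -0.66 and -0.05.

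The order of the levels among the 9 genes was different in the 2 groups. On the scale of CPM per kilobase of the deposited gene length, the mimic libraries had Plcg2 highest with a mean of 32.5, then Btk (22.9), Syk (13.8), Blnk (10.4), Klhl6 (2.83), Ighm (1.47), Cd79a (0.364), Cd79b (0.170) and Ighd at 0. In the control libraries Ighm (123) and Klhl6 (117) came first and overlapped each other, followed by Plcg2 (51.3), Btk (23.8), Syk (17.7), Blnk (11.9), Cd79b (1.96), Cd79a (1.13) and Ighd (0.741). The other neighbours in each order did not overlap over the 2 libraries. The control libraries had more Ighm than Syk or Btk per length of transcript, while Cd79b and Cd79a, the partners of membrane IgM, were at about the level of 1 to 2 CPM per kilobase.

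Genes that follow Ighm most closely over the 4 libraries were sought among tested genes whose log2 CPM averaged 3 or more, by the Euclidean distance of log2 CPM values centred on each gene's mean. With 4 libraries in 2 groups, this ranks mainly the size of the difference between groups. The nearest were Selenbp1 (distance 0.938), Klhl6 (0.999), Hpse (1.04), Gpr183 (1.16) and Pik3ip1 (1.31). Gpr183, the oxysterol receptor that guides B-cell positioning, had 2.96 ± 0.589 CPM in the mimic group and 113 ± 9.85 CPM in the control group (SD, n = 2 each). Hpse, which encodes heparanase, had 1.91 ± 0.613 CPM in the mimic group and 85.5 ± 9.12 CPM in the control group (SD, n = 2 each).

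Defining markers of B cells were at or near 0 in the control libraries that had the high Ighm level. Of 14 B cell markers outside the 9 genes, 8 had 0 counts in both control libraries, among them Ms4a1 (CD20), Pax5, Ebf1 and Blk. The summed level of the list was 2.13 and 4.47 CPM in the mimic libraries, against 1.59 and 3.12 CPM in the control libraries, with Ighm at 245.4 and 219.8 CPM in the control libraries. Of the list 2 genes could be tested, Fcrla through the control libraries alone. Fcrla fell (0.158 ± 0.0699 CPM in the mimic group, 1.05 ± 0.118 CPM in the control group, SD, n = 2 each, edgeR adjusted p = 0.0028, and 0.055 without mimic replicate 2), and Cd22 had 18 and 24 counts in the mimic libraries and 4 and 20 in the control libraries (adjusted p = 0.58). Markers with too few counts to be tested included Bach2, with 10 and 29 counts in the mimic libraries and 1 and 3 in the control libraries, and Cr2, with 9 and 10 in the mimic libraries and 0 and 1 in the control libraries. Without the low-count filter, or without control replicate 2, 2 genes of the list passed as higher. Of 7 pro-B and pre-B markers, 5 had 0 counts in both control libraries, including Vpreb1, Igll1, Rag1 and Rag2. Vpreb1 had 7 and 1 counts in the mimic libraries. The list summed to 4.94 and 4.03 CPM in the mimic libraries, against 0.693 and 1.06 CPM in the control libraries, most of it Il7r. Its tested gene, Il7r, passed the low-count filter through the mimic libraries. Il7r rose, with 86 and 73 counts in the mimic libraries and 8 and 12 in the control libraries.

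Plasma cell markers summed to 211.9 and 242.3 CPM in the mimic libraries and 390.4 and 384.1 CPM in the control libraries, nearly all of it Xbp1 and Sdc1, which macrophages also express. Of this list 3 of 4 tested genes fell (Sdc1, Xbp1 and Irf4), and Irf4 did not pass without mimic replicate 1 (adjusted p = 0.055). The plasma cell genes Jchain and Tnfrsf17 had at most 6 counts in any library. All 3 tested markers of plasmacytoid dendritic cells, which are known to carry heavy-chain transcripts, fell. Of them, Siglech was tested through the control libraries alone. Siglech had 0 counts in both mimic libraries, against 34 and 33 in the control libraries, Tcf4 fell 3.68-fold and Cox6a2 2.47-fold, and Klk1 and Ly6d had 0 counts in all libraries. Ccr9 went the other way, with 6 and 7 counts in the mimic libraries and 0 in both control libraries. It had too few counts to be tested, but without the low-count filter 1 gene of the list passed as higher. Their list summed to 99.9 and 94.2 CPM in the mimic libraries, against 296.7 and 256.8 CPM in the control libraries. Nearly all of it was Cox6a2 and Tcf4, while Siglech had 2.36 and 2.34 CPM in the control libraries. The part of these cells in the Ighm result was not tested.

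Among other lineages, 1 of 8 T and NK cell markers could be tested and rose (Lck). The list summed to 28.4 and 27.4 CPM in the mimic libraries, against 5.54 and 4.76 CPM in the control libraries, most of it Lck. Neutrophil markers had 3 lower of 4 tested (Prtn3, Csf3r and Elane) and none higher. Of these, Prtn3 and Elane were tested through the control libraries alone. S100a8, tested through the mimic libraries, did not pass. It had 13 and 17 counts in the mimic libraries, against 6 and 8 in the control libraries. Mpo, not tested, had 1 and 8 counts in the mimic libraries and 0 in both control libraries. The neutrophil list summed to 15.5 and 11.2 CPM in the mimic libraries, against 173.7 and 240.6 CPM in the control libraries. Nearly all of the control level was Prtn3 and Csf3r. Of mast cell and basophil markers Hdc was the gene that could be tested, and it rose, with 39 and 37 counts in the mimic libraries and 0 and 7 in the control libraries. Hdc was tested through the mimic libraries, where it is high. Against control replicate 1, which had 0 counts, its level in the mimic libraries was at least 9.73-fold higher (with 3 counts taken as the limit of that library). Of erythroid markers Klf1 could be tested and did not pass, and no fibroblast marker could be tested. Of the 8 macrophage markers 7 fell, among them Csf1r, Lyz2 and Adgre1, and Fcgr1 rose. Their summed level was 3244 and 3234 CPM in the mimic libraries, against 16340 and 18000 CPM in the control libraries, of which Lyz2 (lysozyme) was the greater part. The part of any of these lineages in the results of the 9 genes was not tested.

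The other genes of the B-cell receptor pathway went both ways. Of 50 genes in 5 lists 45 were tested, of which 25 fell and 10 rose, while 10 did not pass. Their median log2 fold change was -0.55. With library size alone, 19 were lower and 14 higher. Against a minimum fold change of 1.5, 16 were lower and 6 higher. The counts per list can be read against the 29.7% lower and 31.1% higher of all tested genes.

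Membrane partners of the receptor were lower in 6 of 8 tested cases and higher in none. Of the 6, Cd38 and Cd5 were tested through the control libraries alone. With library size alone, 6 were lower and 1 higher, which was Pirb (0.64, edgeR adjusted p = 0.013). Without the low-count filter 1 gene of the list passed as higher. Cr2, too low to be tested, had 9 and 10 counts in the mimic libraries and 0 and 1 in the control libraries. Cd38, an ectoenzyme of the B-cell surface, had 0 counts in both mimic libraries, against 80 and 76 in the control libraries, at least 68.5-fold lower (with 3 counts taken as the limit of the group). Cd72, an inhibitory co-receptor, fell 6.23-fold (5.4 ± 0.157 CPM in the mimic group, 33.7 ± 3.96 CPM in the control group, SD, n = 2 each). Cd81, a tetraspanin of the B-cell surface, fell 2.46-fold. Of 5 tested kinases that start the signal 3 fell and 2 rose. Lyn, which phosphorylates CD79 tails, fell 2.53-fold, Tec 3.62-fold and Fgr 6.51-fold, while Fyn rose 2.69-fold.

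Adaptors and exchange factors around BLNK fell in 8 and rose in 4 of 13 cases. Dok1, which encodes an inhibitory adaptor, fell by 1.62 ± 0.14 on the log2 scale, Dok3 by 1.17 ± 0.14 and Dapp1 by 0.87 ± 0.19. Bank1, which encodes a scaffold of B-cell signalling, rose by 1.97 ± 0.20, and the ubiquitin ligase genes Cblb and Cbl rose by 1.63 ± 0.21 and 0.89 ± 0.14. With library size alone 4 of these genes were lower and 5 higher. Against a minimum fold change of 1.5, 2 were lower and 3 higher, and Dapp1 did not pass (edgeR adjusted p = 0.061). Downstream effectors fell in 6 and rose in 2 of 14 tested cases, or 4 and 4 with library size alone. Beside genes that act behind PLCG2, their list also holds Plcg1, Pik3cd, Pik3r1 and Akt1. Rasgrp3, a Ras exchange factor that diacylglycerol recruits, fell 9.87-fold to 14.7 ± 0.333 CPM in the mimic group, against 144.9 ± 21.6 CPM in the control group (SD, n = 2 each). Prkcd, which encodes a protein kinase C isoform, fell by 1.03 ± 0.12 on the log2 scale, and the phosphoinositide kinase subunit gene Pik3cd by 1.02 ± 0.13. The higher genes were Bcl10, at 0.42 ± 0.13, which did not pass without mimic replicate 2 (adjusted p = 0.12) or control replicate 1 (0.10), and Itpr2, at 0.42 ± 0.14, which did not pass without mimic replicate 2 (0.060) or control replicate 2 (0.17). Among phosphatases of the pathway, Ptpn6 (SHP-1) fell 3.71-fold and Inpp5d (SHIP-1) 2.86-fold. Ptpn22 rose by 0.97 ± 0.14 on the log2 scale and Ptpn11 by 0.54 ± 0.13, and Inppl1 did not pass.

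Receptors through which macrophages use SYK were lower in 7 and higher in 2 of 9 tested cases, and their median log2 fold change was -2.69. Of the 7, Trem1 was tested through the control libraries alone. Clec7a, the beta-glucan receptor, fell 16.1-fold, Trem2, a lipid receptor, 15.4-fold, and Fcgr3, an IgG receptor, 6.48-fold. The IgG receptor gene Fcgr1 rose 4.19-fold, and Clec4e, the receptor Mincle, rose by 1.01 ± 0.15 on the log2 scale. Transcription factors of immunoglobulin and B-lineage genes fell in 3 and rose in 1 of 10 tested cases, or 3 and 3 with library size alone. Irf8, Spi1 (PU.1) and Irf4 fell by 2.24 ± 0.13, 0.71 ± 0.13 and 1.12 ± 0.32 on the log2 scale, and Id3, an inhibitor of E proteins, rose by 1.62 ± 0.24, or 2.23 without control replicate 2. The B-lineage factors Ebf1, Pou2af1, Ikzf3 and Bcl11a had 0 counts in every library.

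**Figure D4:**
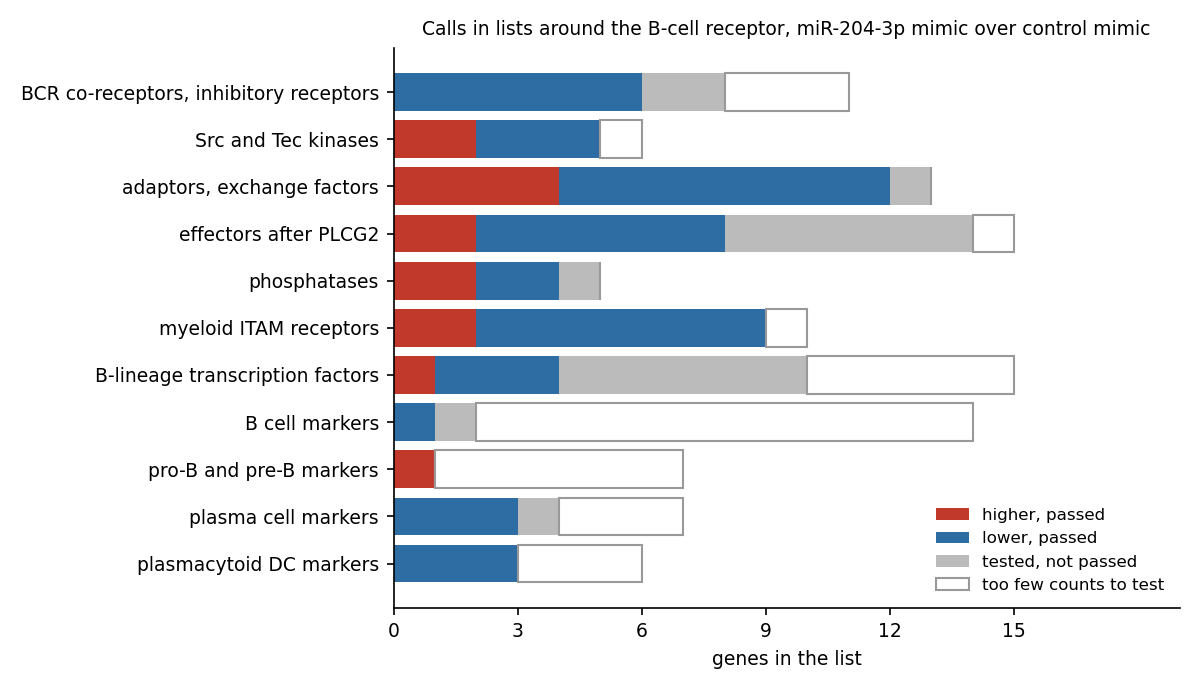
Number of genes (x axis) in each list around the B-cell receptor that passed at an adjusted p below 0.05 as higher or lower in the miR-204-3p mimic libraries relative to the control mimic libraries, that were tested and did not pass, or that had too few counts to test. Of the B cell markers, 2 of 14 could be tested, while all 13 adaptors and exchange factors could. The list labelled as effectors after PLCG2 also holds Plcg1, Pik3cd, Pik3r1 and Akt1.

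For each member, the longest 3′ UTR in GENCODE vM21 was searched for the miR-204-3p seed match. Of the 9 genes, Cd79a and Syk held a match to seed bases 2 to 8 (TTCCCAG), 1 each, and none held the 8mer TTCCCAGA. Among 11276 tested protein-coding genes with a 3′ UTR, 22.5% held TTCCCAG and 6.2% held TTCCCAGA. Both matches are shown with their flanks on GRCm38, with the match in capitals.
Cd79a (chr7:24901616-24901644, plus strand): ggagtccccccTTCCCAGtgcttgctcca
Syk (chr13:52648050-52648078, plus strand): agtgcctctccTTCCCAGggatttgggac
Cd79a, Syk and Ighd also held 1 copy each of TCCCAGA, the match to bases 2 to 7 followed by A, which 16.8% of the genes held. The 3′ UTRs of Ighm (268 bases), Klhl6 (495 bases), Cd79b, Blnk, Btk and Plcg2 held none of these letters. A match is a description of the sequence and not of binding.

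Promoter windows from 250 bases before to 50 after the start were available in RefSeq (GRCm38.p6) for 6 of the 9 genes, with 2 windows for Syk. They were searched on both strands for the octamer ATTTGCAT of immunoglobulin promoters, the PU.1 box GAGGAAG, the EBF palindrome (TCCC, any 2 bases, GGGA) and the interferon-type repeat (GAAA, any 2 bases, GAAA), none of which contains another, and which 1.74%, 13.6%, 0.9% and 3.44% of all 32851 windows held. The octamer was found in Blnk, at position -130 from the start, and the PU.1 box in Btk, at position 9, both in genes that did not pass the test. Klhl6, Cd79a, Plcg2 and Syk held none of these letters in their windows. The windows of Klhl6, which fell 41.4-fold, and of Blnk, with the octamer in capitals, are shown for comparison.
Klhl6 (chr16:19983000-19983299, minus strand): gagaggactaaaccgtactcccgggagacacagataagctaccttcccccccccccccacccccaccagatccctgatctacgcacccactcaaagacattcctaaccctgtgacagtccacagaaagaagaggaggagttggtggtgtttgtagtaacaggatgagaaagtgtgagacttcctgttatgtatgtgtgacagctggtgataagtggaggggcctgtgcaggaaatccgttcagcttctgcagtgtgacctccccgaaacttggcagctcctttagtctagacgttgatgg
Blnk (chr19:40994172-40994471, minus strand): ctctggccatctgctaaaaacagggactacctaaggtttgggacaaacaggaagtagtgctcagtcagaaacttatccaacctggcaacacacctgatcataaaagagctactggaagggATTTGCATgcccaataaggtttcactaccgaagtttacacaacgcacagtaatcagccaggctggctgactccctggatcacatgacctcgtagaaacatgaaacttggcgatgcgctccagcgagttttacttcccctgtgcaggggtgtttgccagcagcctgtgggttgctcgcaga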

How the data were processed

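RNA-seq counts of 4 libraries, 2 per group, were used. Its values are whole-number read counts per gene, deposited without normalization next to gene length and position, per the file headers. HISAT2 and mm10 are named in the submitters' processing notes, while versions, the read counter and strand handling are not given in the sources used here. All 9 members had the same coordinates in GENCODE vM21.

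edgeR 4.0.16 (R 4.3.3) gave the main test, a quasi-likelihood F test (two-sided, group only, TMM factors of 1.14 and 1.13 in the mimic and 0.878 and 0.886 in the control libraries, filterByExpr by group) and Benjamini-Hochberg adjustment over all 13186 tested genes at 0.05. Standard errors came from the F statistic. The scripts were tested on simulated data. Alternatives were library size alone, upper quartile factors, DESeq2 1.42.0, other filters, a replicate block, a minimum fold change of 1.5 and leaving out each library. Intervals and floors of 3 counts cover counting error only. Replicates differed by more than counting noise. The members and the 17 gene lists were chosen with earlier results of these data known. Named beside the members were the 3 or fewer genes of lowest p in each list and direction, the 5 most abundant other immunoglobulin rows and the 5 genes nearest to Ighm; other genes named were chosen after their values were seen, and some genes the rule gives are not reported here. Without stated strand use, reads of overlapping genes could be mixed.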

Additional observations from a re-analysis of the deposited data

How the results depend on the processing

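Over the 11 alternatives, the calls of Ighm, Klhl6 and Cd79b held throughout, and that of Ighd in each of those in which it could be tested. Of the 9 members 5 to 7 passed. Of all genes 7225 to 7678 passed without any 1 library, against 8022, and 4470 with a minimum fold change of 1.5. Genes of all lists that passed numbered 60 to 67 without any 1 library, against 66, and 49 with the minimum fold change. With library size alone, values turned above 0 for members and list genes including Blnk (0.18, not passed), Btk (0.31), Syk (0.0011), Nfatc1 (0.31) and Akt1 (0.050); Btk and Nfatc1 then passed as higher, and the calls of Syk and Akt1 were lost. The replicate block gave 8070 genes and 7 members and changed no member's call. Deviations of same-numbered libraries correlated at 0.024, so that no effect shared by a replicate number was seen. With 2 libraries per group, this cannot tell whether the samples were prepared in pairs. Depth limits Ighd, Cd79a, Cd79b and the D and J rows, at 50 counts or fewer per library. The cause of each change was not tested.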
